A study of Mus musculus with 192 samples.

Results

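Runx1, Runx2, Runx3 and Cbfb encode the core-binding factor transcription complex, and the 4 genes were taken by symbol from the 20764 genes counted in single mouse blood progenitors. A Runx protein binds DNA through its Runt domain, and Cbfb, which does not touch DNA itself, binds the Runx protein and stabilises that contact. The complex recruits coactivators or corepressors, so the same factor can raise or lower a target. In the blood system Runx1 is required for the emergence of stem cells in the embryo and later for megakaryocyte and lymphocyte development. Runx3 is best known for cytotoxic T cells and natural killer cells, and Runx2 for bone formation.

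The cells were 192 single bone marrow cells of C57BL/6 mice, a strain that the labels give for every cell, and the mice of the study were 8 to 16 weeks old. Marrow was enriched for cKit (CD117, the stem cell factor receptor) on magnetic beads and index sorted, so that each cell has its antibody signals in arbitrary units; the labels call the cells LSK, which stands for lineage-negative, Sca-1-positive and cKit-positive progenitors. No animal, treatment or genotype group was named, so the cells count as 1 biological sample: every value below is a description without a test, and all 95% intervals cover counting error only. Cells were ranked within each of 2 library pools by 4 signals and divided into lower, middle and upper classes of 32 cells per pool: CD135 (the Flt3 receptor, carried by multipotent and lymphoid-primed progenitors), CD150 (Slamf1, carried by long-term stem cells), cKit and Sca-1 (Ly6a). The median CD150 signals of the lower, middle and upper classes were 44.7, 69.7 and 110 units, and the upper class ran from 78.7 to 555. Of its 63 cells kept, 15 were also CD135 upper, so CD150 upper is a rank of signal and not a stem cell gate.

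Of the 192 cells, 191 were kept, with a median of 17715 gene UMIs (unique molecular identifiers, each standing for 1 captured molecule; range 3927 to 49372) and 4910 detected genes. Pool 1 held 96 cells and 1934940 gene UMIs, and pool 2 held 95 cells and 1769902; the same 96 cell indexes were used in both pools. The label was checked against its markers: Kit had a UMI in 98.4% of the cells, Ptprc (CD45) in 96.3%, Cd34 in 95.3%, Flt3 in 86.4%, Ly6a in 37.7% and Slamf1 in 8.38%. Marker genes of other lineages gave no single background of detection. Among the T, B and natural killer cell, granulocyte and monocyte, stromal and endothelial markers, S100a8 was found in 0 cells and Camp in 3.14%, but Csf1r in 13.1%, Cd79b in 18.8%, Pdgfrb and Tek in 19.4% each, Itgam in 31.4% and Pecam1, the most widely found, in 62.3%. The summed erythroid markers, mostly Car1, were uneven over the classes, at 32.5 CPM (UMIs per 1000000 gene UMIs) in CD135 upper against 636 in CD135 lower cells, 526 in CD150 upper against 40.0 in CD150 lower, 512 in cKit upper against 81.9 in cKit lower, and 48.6 in Sca-1 upper against 617 in Sca-1 lower cells. A single cell held 27.8% of these erythroid UMIs, and the part of such cells in the values of the 4 genes was not tested.

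All 3 Runx genes carry a tandem pair of Runx sites near their upstream start, and it is shown here because it is a sequence feature that the 3 share and that is rare elsewhere. In the RefSeq windows of 300 bases around each start (250 bases before to 50 after), the Runx motif AACCACA was searched on either strand and found in 1731 of 32851 windows, or 5.269%. The pair AACCACANAACCACA was found in 5 windows (0.01522%): those of Runx1, Runx2 and Runx3, that of Olfr24, and that of Gm16225, a non-coding gene whose window overlaps the Runx3 window. The sites are given on the strand of the gene in GRCm38.p6, with the motif copies in capitals.
Runx1, chr16:92826025-92826054, minus strand: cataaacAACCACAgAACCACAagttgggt
Runx2, chr17:44814583-44814612, minus strand: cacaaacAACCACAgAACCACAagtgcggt
Runx3, chr4:135120503-135120532, plus strand: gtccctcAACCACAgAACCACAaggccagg
The first copy began at position 27 from the start of Runx1, 22 from that of Runx2 and -135 from that of Runx3. The 3 genes share the same spacer base between the copies, and the Runx1 and Runx2 sites also share most of their flanks. The second RefSeq windows of Runx1 and Runx3, which belong to their internal starts, held no AACCACA, and neither did the Cbfb window. A match is a description of letters and not a binding measurement. The libraries count 3′ ends, so transcripts from the upstream and the internal start of a Runx gene were counted together.

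All 4 genes were found in more cells than any of these markers of other lineages. Runx1 (ENSMUSG00000022952, chr16:92601466-92826149 on the minus strand of GRCm38) had 802 UMIs, or 216 CPM (95% Poisson interval 202 to 232), with a UMI in 174 of 191 cells (91.1%). Runx2 (ENSMUSG00000039153, chr17:44495987-44814797, minus strand) had 778 UMIs, or 210.0 CPM (195 to 225), in 181 cells (94.8%). Runx3 (ENSMUSG00000070691, chr4:135120652-135177990, plus strand) had 432 UMIs, or 117 CPM (105.9 to 128.1), in 147 cells (77.0%). Cbfb (ENSMUSG00000031885, chr8:105170674-105217989, plus strand) had 572 UMIs, or 154 CPM (142 to 167.6), in 86.9% of the cells. A UMI stands for a molecule whatever its length, so these levels were not divided by length. In that order of levels, Runx1 and Runx2 did not differ beyond counting error, while Cbfb stood below both and Runx3 below Cbfb. Capture can differ between genes, so this order is one of captured molecules.

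The spread over cells was wider than counting error for each gene, so the counting intervals are too narrow as a measure of cell variation. The ratio of the observed variance to that from counting was 2.60 for Runx1, 2.29 for Runx2, 1.74 for Runx3 and 1.32 for Cbfb. No single cell carried a gene: the highest cell held 20 UMIs of Runx1 (2.49% of its total), 13 of Runx2, 10 of Runx3 and 18 of Cbfb (3.15%). The pools agreed for Runx1, at 214 CPM in pool 1 and 219 in pool 2, for Runx2 (208 and 212) and for Cbfb (157.1 and 151.4). Runx3 stood at 101 CPM in pool 1 and 134 in pool 2, so it is the gene for which values within each pool matter most. The genes that overlap the 4 on the opposite strand added little: Supt3 shares no exon base with Runx2, Runx2os1 shares 519 bases but had 14 UMIs, and Gm26626 shares 106 bases with Runx1 but had 2. Whether counting used the strand is not given in the sources used here.

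**Figure D1:**
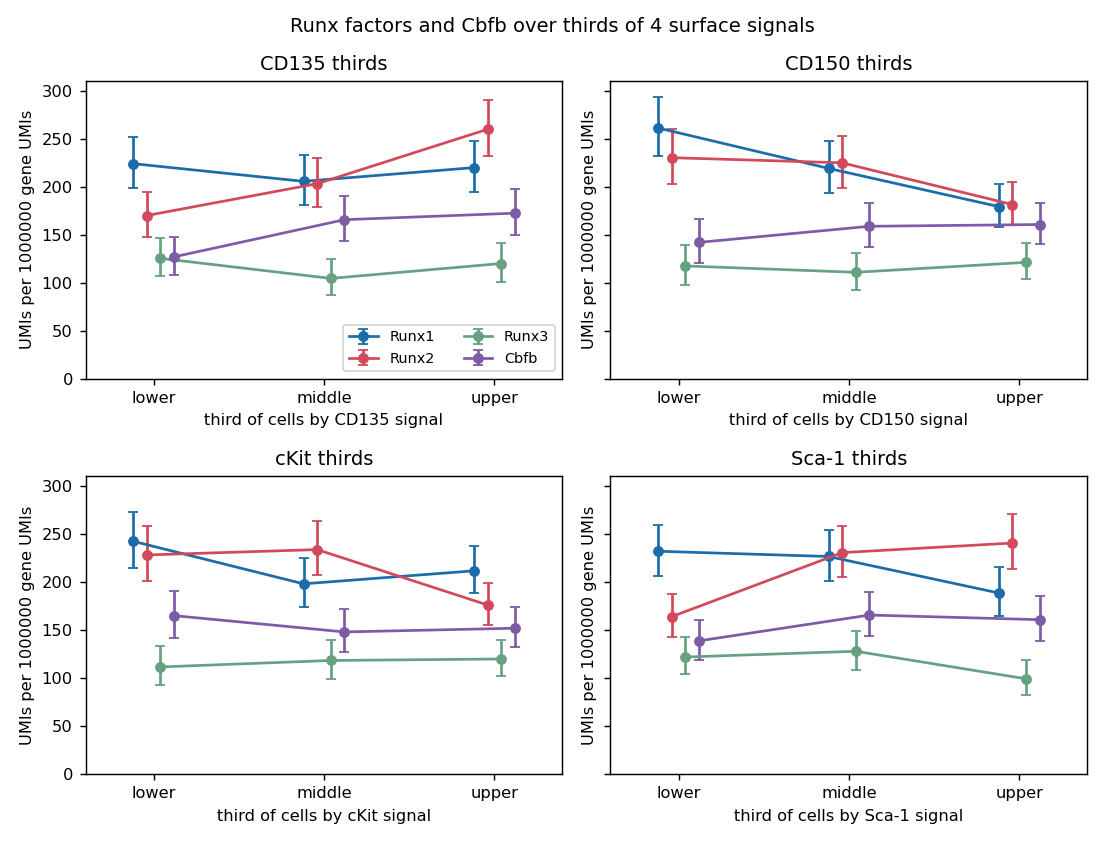
Level of each gene (y axis, UMIs per 1000000 gene UMIs) in the lower, middle and upper class (x axis) of CD135, CD150, cKit and Sca-1, with exact 95% Poisson intervals for counting error. Runx2 is highest in the CD135 upper and Sca-1 upper classes, at 260 and 240, and Runx1 goes down over the CD150 classes to 179 in the upper class; Runx3 stays between 98.9 and 127.6.

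Over CD135, Runx2 was the gene that differed most. It stood at 170 CPM in lower (217 UMIs, interval 148 to 194), 203 in middle (249 UMIs, 179 to 230) and 260 in upper cells (312 UMIs, 232 to 290). The median cell had 184, 193 and 251 CPM in that order, and the highest cell 667, 742 and 974, while every class held cells at 0. The classes overlapped widely cell by cell, while both the median and the highest cell lay above those of the lower class, as the plot of single cells shows. Upper over lower, Runx2 was 1.53-fold higher (log2 0.61, interval 0.36 to 0.87), and the log2 ratio was 0.61 in pool 1 and 0.61 in pool 2.

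Runx2 was the only one of the 4 genes past 1.5-fold over CD135. Of the 10266 genes with at least 20 UMIs over the upper and lower classes, 10.9% were higher by 1.5-fold and 14.4% lower. Among the 2129 genes with at least 200 UMIs, whose counting error is nearer to that of Runx2, 4.98% were higher and 4.04% lower. The call was not met in 3 of the 13 alternative computations: Runx2 was 1.48-fold higher with the mean of each cell's CPM, 1.45-fold with ERCC spike-in UMIs as denominator and 1.31-fold between the upper and lower 48 cells of each pool.

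Cbfb, the shared partner, also stood higher with CD135, at 127 CPM in lower (108.05 to 147.9), 165.5 in middle (144 to 190) and 172 in upper cells (150 to 197). The median cell had 127.3, 154.7 and 135.4 CPM, so the order of the class sums did not hold in the medians. The log2 ratio of upper over lower was 0.44 (0.14 to 0.75), below the 1.5-fold call, with 0.25 in pool 1 and 0.68 in pool 2. Runx1 stood at 224, 205 and 220 CPM in lower, middle and upper cells, with a log2 ratio of -0.03 (-0.27 to 0.22, counting error only). The Runx1 ratio was -0.17 in pool 1 and 0.14 in pool 2. Runx3 stood at 125, 104 and 120 CPM, with a log2 ratio of -0.06 (-0.40 to 0.27) that differed in sign between the pools. The 3 Runx genes summed to 599 CPM in upper and 519 in lower cells, a log2 ratio of 0.21 (0.05 to 0.36).

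**Figure D2:**
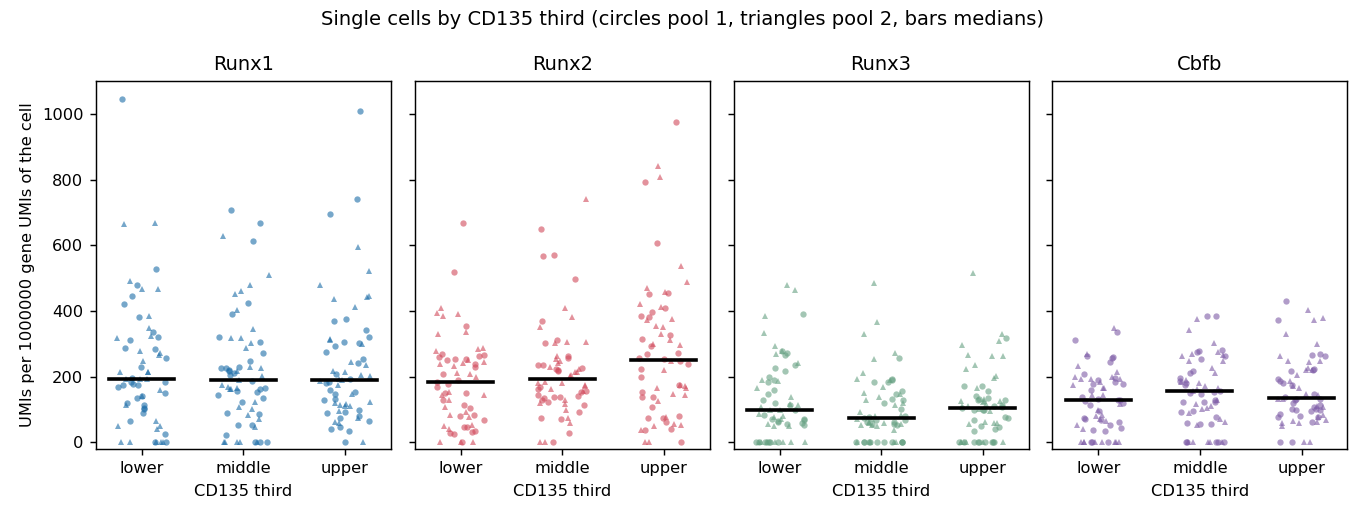
Each cell's level (y axis, UMIs per 1000000 gene UMIs of that cell) by CD135 class (x axis), circles for pool 1, triangles for pool 2 and black bars for medians; sideways position within a class is random. The Runx2 median is 251 in the upper class and 184 in the lower, while the Runx1 medians lie between 189 and 194.

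The classes of different signals share cells, so each difference was also computed within the classes of the other signals. Of the 64 CD135 upper cells, 43 were cKit lower and 2 were cKit upper, while 23 were Sca-1 upper and 26 were CD150 lower. The log2 ratio of Runx2, CD135 upper over lower, was 0.28, 0.57 and 0.80 within CD150 lower, middle and upper cells. It was 0.83 and 0.82 within cKit lower and middle cells, and 0.50, 0.62 and 0.34 within Sca-1 lower, middle and upper cells. All of these were above 0, with intervals that reached below 0 within CD150 lower and Sca-1 upper cells. The cKit upper class held too few CD135 upper cells to be read. Runx1, level over CD135 in all cells, had a ratio of -0.67 (-1.13 to -0.17) within cKit lower cells, from 43 upper and 8 lower cells. It was -0.06 within cKit middle cells, and within the CD150 and Sca-1 classes it lay between -0.37 and 0.18, with intervals that held 0.

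Over CD150, Runx1 was the gene that differed most, and it ran the other way. Runx1 stood at 261 CPM in lower (287 UMIs, 232 to 293), 219 in middle (265 UMIs, 193 to 247) and 179 in upper cells (250 UMIs, 158 to 203). The median cell had 211, 179.3 and 175.8 CPM, and each class ran from 0 to a highest cell of 1008, 739 and 1045. The lower and upper classes thus covered the same range of single cells, with the lower class shifted up. Upper over lower, the log2 ratio was -0.54 (-0.79 to -0.29), a level 1.46-fold lower, with -0.50 in pool 1 and -0.58 in pool 2.

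None of the 4 genes passed 1.5-fold over CD150, where 11.8% of the 10323 genes with at least 20 UMIs were higher by that fold and 9.53% lower. Runx2 stood at 230, 225 and 181 CPM in lower, middle and upper cells, with a log2 ratio of -0.34 (-0.60 to -0.09) that was -0.12 in pool 1 and -0.58 in pool 2. Runx3 (117, 111 and 121 CPM) and Cbfb (142, 159 and 161 CPM) had log2 ratios of 0.05 (-0.29 to 0.39) and 0.18 (-0.12 to 0.48), each with opposite signs in the 2 pools. The Runx sum was 482 CPM in upper and 609 in lower cells, a log2 ratio of -0.34 (-0.49 to -0.18). The CD150 classes also differed in captured RNA, with 34.1 gene UMIs per spike-in UMI in upper and 27.7 in lower cells. Per spike-in UMI the log2 ratio was -0.25 for Runx1 and -0.046 for Runx2.

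Within CD135 lower, middle and upper cells the log2 ratio of Runx1, CD150 upper over lower, was -0.33, -0.62 and -0.81, so the direction was the same in each CD135 class. The interval held 0 within CD135 lower cells (-0.75 to 0.09). Within Sca-1 lower, middle and upper cells the Runx1 ratio was -0.61, -0.46 and -0.44. The intervals held 0 within Sca-1 middle (-0.93 to 0.01) and upper cells (-0.90 to 0.03). Within cKit lower cells the Runx1 ratio was 0.046 (-0.40 to 0.48, 13 upper and 27 lower cells), so no difference was seen there. It was -1.13 and -0.50 within cKit middle and upper cells. That of Runx2 was -0.53, -0.17 and -0.01, with only the value in CD135 lower cells clear of 0 by its counting interval, and within cKit lower, middle and upper cells it was 0.36, -0.48 and -0.50.

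**Figure D3:**
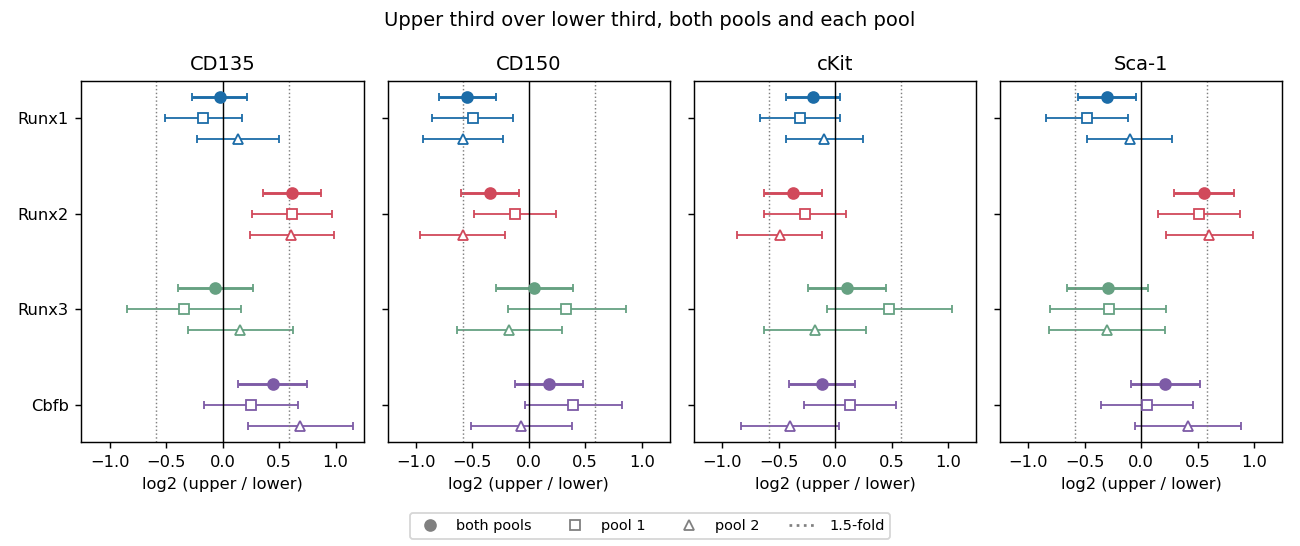
Log2 ratio of the upper over the lower class (x axis) for each gene and signal, with exact 95% intervals for counting error; filled circles are both pools, open squares pool 1, open triangles pool 2, and dotted lines mark 1.5-fold. Runx2 lies at 0.61 for CD135 and 0.55 for Sca-1 with both pools on the same side, and Runx1 at -0.54 for CD150.

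Taking both signals together separated the 2 most abundant Runx genes. In the 9 joint classes of CD135 and CD150, which held 15 to 30 cells each, Runx2 was at 261, 259 and 260 CPM in the 3 classes with upper CD135, whatever the CD150 class. Its lowest level, 148.6 CPM (121.3 to 180.2), was in cells with lower CD135 and upper CD150. Runx1 was highest, at 288 CPM (240.2 to 342), in cells with upper CD135 and lower CD150, and lowest, at 151.4 CPM (116.1 to 194.1), in cells with middle CD135 and upper CD150. Cbfb was highest where both signals were upper, at 219 CPM (168.4 to 279) in 15 cells, which are the cells where Runx1 was at 163.95 CPM (120.9 to 217). Runx3 ranged from 91.9 to 132 CPM over the 9 classes, and its intervals overlapped throughout.

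**Figure D4:**
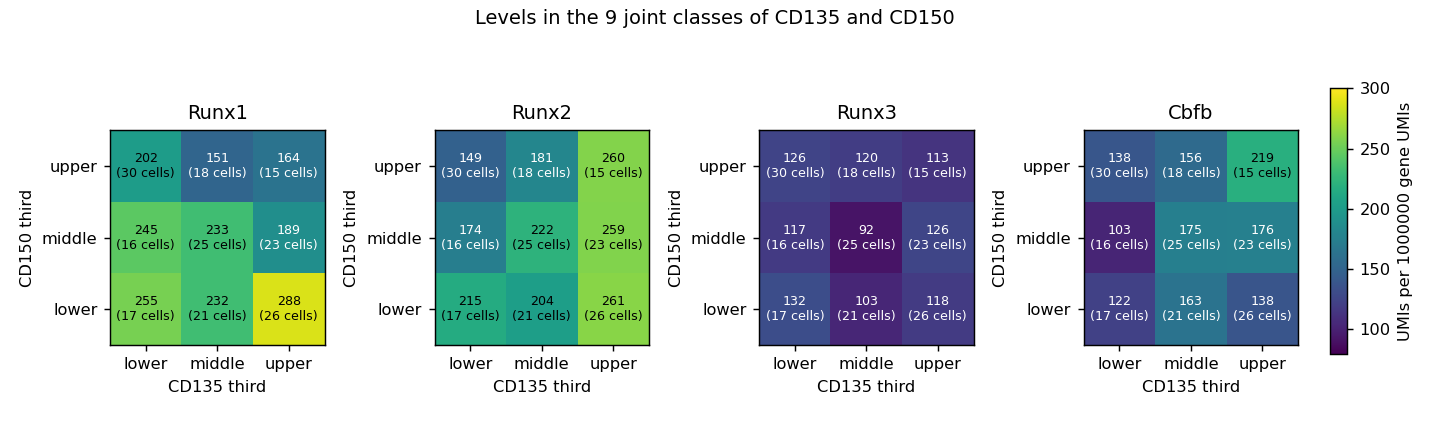
Level of each gene (colour and upper number, UMIs per 1000000 gene UMIs) in the 9 joint classes of CD135 (x axis) and CD150 (y axis), with the number of cells in parentheses. Runx2 is near 260 in the whole right-hand column, while Runx1 reaches 288 in the lower right square and 163.95 in the upper right.

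Over cKit, the largest ratio was again that of Runx2. It stood at 228 CPM in lower (201 to 258), 234 in middle (207 to 263) and 175.9 in upper cells (154.6 to 199.2), so the upper class alone was low. Its log2 ratio, upper over lower, was -0.37 (-0.63 to -0.12), with -0.27 in pool 1 and -0.49 in pool 2. Runx1 stood at 242, 198 and 211 CPM (log2 -0.20, -0.44 to 0.05), Runx3 at 111, 118 and 120 CPM and Cbfb at 164.8, 147.8 and 151.7 CPM. The ratio of Runx3 was 0.48 in pool 1 and -0.18 in pool 2, and that of Cbfb 0.13 and -0.40, so neither had a direction common to both pools. None of the 4 passed 1.5-fold, against 13.3% of 10308 genes higher and 9.47% lower. Within the CD135 classes the Runx2 ratio had no steady direction, at 0.34, -0.26 and -0.41 in CD135 lower, middle and upper cells, and only 2 cells were upper for both signals. Within CD150 lower, middle and upper cells it was -0.04, 0.07 and -0.89. Within Sca-1 lower, middle and upper cells it was -0.27, -0.64 and -0.16, with an interval clear of 0 in the middle class only.

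Over Sca-1, Runx2 was again the gene that differed most. It stood at 163.7 CPM in lower (214 UMIs, 142.5 to 187.2), 230 in middle (287 UMIs, 205 to 259) and 240 in upper cells (277 UMIs, 213 to 270). The median cell had 164.97, 217.6 and 235.7 CPM, and the highest cell 841, 974 and 742, so the classes overlapped while the medians followed the sums. Upper over lower, Runx2 was 1.47-fold higher, a log2 ratio of 0.55 (0.29 to 0.82) with 0.51 in pool 1 and 0.60 in pool 2. That is short of 1.5-fold, as were the other 3 genes, against 14.6% of 10234 genes higher and 9.08% lower.

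Runx1 ran the other way over Sca-1, at 232, 226 and 188 CPM in lower, middle and upper cells. Its log2 ratio was -0.30 (-0.56 to -0.04), with -0.48 in pool 1 and -0.10 in pool 2. Runx3 stood at 121.7, 127.6 and 98.9 CPM (log2 -0.30, -0.66 to 0.06) and Cbfb at 138.5, 165.4 and 160.6 CPM (log2 0.21, -0.09 to 0.52). With Runx2 higher and Runx1 and Runx3 lower, the Runx sum was nearly level, at 528 CPM in upper and 517 in lower cells (log2 0.03, -0.13 to 0.19). Gene UMIs per spike-in UMI were 27.6 in Sca-1 upper and 33.6 in lower cells, and per spike-in UMI the log2 ratio was 0.27 for Runx2 and -0.59 for Runx1. Within CD135 lower, middle and upper cells the Runx2 ratio over Sca-1 was 0.41, 0.71 and 0.26, and its interval was clear of 0 in the middle class only. It was 0.58, 0.39 and 0.70 within CD150 lower, middle and upper cells and 0.51, 0.46 and 0.62 within cKit lower, middle and upper cells.

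The share of each Runx gene among the Runx UMIs does not depend on the denominator chosen for a cell. Over all cells Runx1 held 39.9%, Runx2 38.7% and Runx3 21.5% of 2012 Runx UMIs. Over CD135, Runx2 held 32.7% in lower, 39.6% in middle and 43.3% in upper cells, while Runx1 held 43.1%, 40.1% and 36.7%. By captured molecules, the largest share was thus that of Runx2 in CD135 upper cells and of Runx1 in CD135 lower cells. In the upper cells the intervals of Runx1 (33.1% to 40.3%) and Runx2 (39.68% to 47.04%) overlapped. The Clopper-Pearson intervals of the Runx2 share did not overlap between upper (39.68% to 47.04%) and lower cells (29.2% to 36.4%). The same order stood in each pool, with 45.7% in upper against 32.0% in lower cells of pool 1, and 41.1% against 33.6% in pool 2.

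Sca-1 gave the same order of shares. The shares make up a whole, so the share of Runx1 can fall without a fall in its level. The log2 ratio of the Runx1 level was -0.03 over CD135 and -0.30 over Sca-1. Runx2 held 31.7% in lower, 39.4% in middle and 45.6% in upper cells, and Runx1 44.8%, 38.7% and 35.7%. In pool 1 the Runx2 share was 47.1% in upper against 31.9% in lower cells, and in pool 2 it was 43.9% against 31.4%. Over CD150 the Runx2 share was close to level (37.8%, 40.5% and 37.6%), Runx1 held 42.9%, 39.5% and 37.2%, and Runx3 held 19.28%, 19.97% and 25.15%. The Runx3 share was higher in CD150 upper cells in both pools, at 23.9% in upper against 16.7% in lower cells of pool 1 and 26.6% against 21.4% in pool 2, with overlapping intervals. The Runx3 level itself had a log2 ratio of 0.05 (-0.29 to 0.39) over CD150. Over cKit the Runx3 share was 19.1%, 21.5% and 23.6%, and in the lower class it was 14.5% in pool 1 and 23.5% in pool 2.

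**Figure D5:**
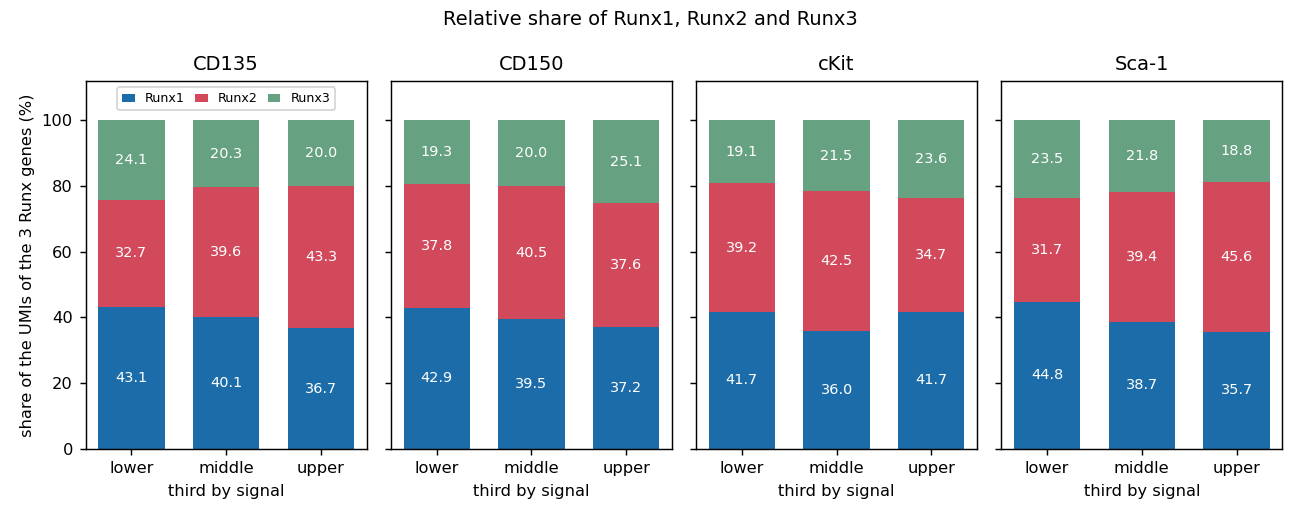
Share of Runx1, Runx2 and Runx3 (y axis, percent of the UMIs of the 3 genes) in the lower, middle and upper class of each signal (x axis). The Runx2 segment is 43.3% in the CD135 upper class and 32.7% in the lower, and 45.6% in the Sca-1 upper class and 31.7% in the lower.

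Cbfb binds all 3 Runx proteins, so its transcripts were set against their sum. There were 0.284 Cbfb UMIs per Runx UMI over all cells (exact interval 0.259 to 0.312). Over CD150 the ratio was 0.233 in lower, 0.286 in middle and 0.333 in upper cells, and it stood in this order in both pools (0.361 in upper against 0.243 in lower cells of pool 1, 0.301 against 0.225 in pool 2). The other signals gave no such order in CD135 (0.244, 0.323 and 0.288 in lower, middle and upper cells) or cKit (0.283, 0.269 and 0.299), and Sca-1 gave 0.268, 0.283 and 0.304. The ratio compares classes and not the amounts of the proteins.

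Most single cells held transcripts of several of the genes. UMIs of all 3 Runx genes were found in 129 of 191 cells, of 2 in 54, of 1 in 7 and of none in 1 cell. Cbfb was found together with a Runx gene in 86.9% of the cells and never without one, and 115 cells (60.2%) held all 4. With each cell thinned to 12147 UMIs, which left 172 cells, all 3 Runx genes were found in 88, and Cbfb without a Runx gene in 1. Cells with a single Runx gene were few, 7 as counted and 10 after thinning, and a count of 0 does not show that a gene was off.

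The shares of cells with a UMI at the thinned depth followed some of the differences in level and not others. Thinning left out 4, 7 and 8 cells of the CD135 lower, middle and upper classes, 10, 6 and 3 of CD150 and 5, 6 and 8 of Sca-1. Runx2 was detected in 81.4%, 89.5% and 91.1% of CD135 lower, middle and upper cells and in 77.6%, 87.9% and 96.4% of Sca-1 lower, middle and upper cells. Before thinning the Runx2 shares were 93.7%, 95.3% and 95.3% over CD135 and 90.5%, 96.9% and 96.9% over Sca-1. Cbfb was detected in 72.9%, 78.9% and 89.3% of CD135 lower, middle and upper cells, against 82.5%, 84.4% and 93.8% before thinning. Runx1 was detected in 92.6%, 84.5% and 83.3% of CD150 lower, middle and upper cells, against 92.2%, 89.1% and 92.1% before thinning. Runx1 over Sca-1, lower in level in the upper class, was detected in 84.5%, 86.2% and 89.3% of lower, middle and upper cells (90.5%, 92.2% and 90.6% before thinning). Runx2 over cKit, also lower in the upper class, was detected in 84.6%, 91.4% and 85.5% (93.7%, 96.9% and 93.75% before thinning). In these 2 cases the share went against or did not follow the level, and no order is read from it. The exact intervals of lower and upper classes after thinning overlapped in each of these cases, except that those of Runx2 over Sca-1 (87.7% to 99.6% in upper, 64.7% to 87.5% in lower) did not. That gap is narrow and comes from a single random draw. Before thinning the intervals overlapped (89.2% to 99.6% in upper, 80.4% to 96.4% in lower), so no separation is read from it.

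A set of 14 cells with a CD127 (Il7 receptor) signal above 2000 was set beside the other 177 cells. Runx1 stood at 128.4 CPM in CD127-high and 224 in the other cells, a log2 ratio of -0.80 (-1.31 to -0.34) with pool values of -1.07 and -0.63. Leaving out the CD127-high cell with the most Runx1 UMIs gave -0.95. Runx1 was the only one of the 4 past 1.5-fold, against 24.7% of 11250 genes lower and 14.2% higher, so this count is near that of all genes. Between upper and lower classes of the CD127 signal, ranked like the other signals, Runx1 did not differ clearly (log2 -0.16, -0.40 to 0.08). Neither did Runx3 (0.02, -0.31 to 0.35) or Cbfb (0.23, -0.06 to 0.53), while Runx2 was lower in the upper class (-0.49, -0.75 to -0.23). In CD127-high against the other cells, Runx2 stood at 164.7 against 214 CPM (log2 -0.38, -0.82 to 0.04). Runx3 stood at 154.8 against 113.2 (log2 0.45, -0.02 to 0.89) and Cbfb at 207 against 150 (log2 0.47, 0.07 to 0.85). Each ratio was also computed without the CD127-high cell with the most UMIs of the gene. It was then -0.56 (-1.06 to -0.09) for Runx2, 0.43 (-0.08 to 0.90) for Runx3 and 0.31 (-0.14 to 0.73) for Cbfb. The Cbfb interval was thus no longer clear of 0. Runx3 made up 34.6% (26.6% to 43.2%) of the Runx UMIs in CD127-high and 20.5% (18.7% to 22.4%) in the other cells, and Cbfb UMIs per Runx UMI were 0.463 against 0.271. The log2 ratio was -0.92 in pool 1 and -0.06 in pool 2 for Runx2, 0.64 and 0.26 for Runx3, and 0.73 and 0.23 for Cbfb. These values rest on few cells.

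Over the CD11b signal, which is a myeloid integrin subunit, Runx2 stood at 249 CPM in lower, 238 in middle and 153 in upper cells. Its log2 ratio, upper over lower, was -0.70 (-0.97 to -0.44), with -0.83 in pool 1 and -0.55 in pool 2, and 9.83% of 10298 genes were lower by 1.5-fold and 10.4% higher. Runx1, Runx3 and Cbfb did not pass that fold over CD11b.

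The genes whose levels were most like those of each member were ranked over 18 groups of cells, made from pool, CD135 class and CD150 class. Each group is small, with at least 3 cells, and the groups share the classes that the levels follow, so Pearson's r is a description across groups only. Nearest to Runx2 among 3259 genes were Ncf1 (0.83), a subunit of the phagocyte oxidase, Cdk19 (0.83), Laptm5 (0.81), a lysosomal protein of blood cells, Foxp1 (0.81), a transcription factor of early B cells, and Dntt (0.80), which adds bases during antigen receptor rearrangement. Nearest to Runx1 were Fubp1 (0.82), Slc38a10 (0.81), Ep300 (0.80), a Runx coactivator, Snrpd3 (0.79) and Tspan3 (0.79). Nearest to Runx3 were Slc35c2 (0.81), Myh9 (0.80), Bdp1 (0.75), Atp5c1 (0.75) and Arid1b (0.75), and nearest to Cbfb were Atp2b4 (0.77), Srebf2 (0.75), Xrn2 (0.75), Rnf220 (0.74) and Lmnb1 (0.74). Among the members, Runx2 and Cbfb had an r of 0.59 and Runx1 and Cbfb -0.46. The other 4 pairs lay between -0.12 and 0.11, so no common pattern of the 3 Runx genes was seen over these groups. Counting error in such small groups also weakens r, so these values cannot show that there is none.

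Genes that work with the Runx proteins were described by lists, as counts past 1.5-fold and the median log2 ratio, upper over lower class. The median over all genes with at least 20 UMIs was -0.05 for CD135, 0.00 for CD150, 0.06 for cKit and 0.03 for Sca-1. The lists are small, so each count is given beside the share of all genes past 1.5-fold. Of 11 corepressor genes tested over CD135, 2 were higher and 1 lower (median 0.15), near the 10.9% higher and 14.4% lower of all genes, and the most abundant, Ncor1, stood at 302 CPM in upper and 353 in lower cells. The coactivators and modifying enzymes had 1 higher and 1 lower of 11 (median 0.01), also near these shares. The gene on the lower side was Cdk6, a kinase known to bind Runx1, with 202 CPM in CD135 upper and 373 in lower cells (log2 -0.88). Cdk6 also stood at 195 CPM in Sca-1 upper against 373 in lower cells and at 389 in cKit upper against 210.2 in lower cells, so over these 3 signals it ran opposite to Runx2. Of the Eto family corepressors, Cbfa2t3 had 273 CPM in CD135 upper and 342 in lower cells, and none of the 2 genes tested passed 1.5-fold over any of the 4 signals.

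The stem cell factors that bind together with Runx1 split in a way that Runx1 itself did not over CD135. Of 7 tested, 2 were lower and 0 higher (median -0.03), beside 14.4% lower and 10.9% higher of all genes: Gata2 stood at 30.8 CPM in upper and 194 in lower cells (log2 -2.66), and Tal1 at 52.4 against 125 (log2 -1.26). Lmo2, a bridging subunit of the same complex, stood at 539 CPM in upper and 533 in lower cells, and Erg at 142 and 144. Over CD150 the same 2 genes were higher (11.8% of all genes), Gata2 with 158 CPM in upper and 77.3 in lower cells and Tal1 with 98.9 against 64.6, where Runx1 was lower. Over cKit Gata2 (log2 1.55) and Tal1 (1.09) were also higher, beside 13.3% of all genes. Over Sca-1, 2 of 7 were higher, beside 14.6% of all genes, among them Lmo2 with 699 CPM in upper and 405 in lower cells. These genes are erythroid and megakaryocytic as well, and the erythroid markers given above differed in the same direction over CD135, CD150 and cKit.

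Of the myeloid and megakaryocyte genes known as Runx1 targets, 7 of 11 were lower and 2 higher over CD135 (median -1.63), beside 14.4% and 10.9% of all genes. Mpo, a granule enzyme, stood at 119 CPM in CD135 upper and 368 in lower cells. Nfe2, a megakaryocyte factor, had 55.8 against 85.3 CPM, while Gfi1, a repressor, had 36.6 in upper and 16.4 in lower cells. Elane had 6 against 158 UMIs, with 58.4% of its UMIs in 1 cell. Over Sca-1, 5 of 11 were lower and 4 higher, beside 9.08% lower and 14.6% higher of all genes, with Mpo at 93.7 CPM in upper and 426 in lower cells and Gfi1 at 40.8 against 19.9. Over CD150, where Runx1 differed most, 5 of 11 were lower and 3 higher, beside 9.53% lower and 11.8% higher of all genes. Over cKit, 4 of 10 were lower and 3 higher, beside 9.47% and 13.3%. The list thus held genes of both directions over all 4 signals.

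Lymphoid genes known as Runx targets were mostly too low to read, with 4 of 12 tested over CD135. Of these, 3 were higher and 1 lower, beside 10.9% higher and 14.4% lower of all genes. The higher ones were Ccr9, a homing receptor, with 96.6 CPM in upper and 7.05 in lower cells, Il7r with 34.97 against 2.35, and Itgal with 60.8 against 17.2. Bcl11b was the one lower, with 1 UMI in upper and 31 in lower cells, and 73.5% of all its UMIs lay in 1 cell. For Il7r 1 cell held 28% and for Ccr9 17.7%, so these ratios rest on few cells. Over cKit, 5 of 5 tested were lower, beside 9.47% of all genes, with Ccr9 at 2 UMIs in upper and 85 in lower cells and Il7r at 0 and 49. Cd79a had 2 and 39, and 1 cell held 88.1% of its total. Ebf1 had 0 and 20, with 76.2% of its total in 1 cell. Over Sca-1, where Runx2 was higher, 4 of 6 were lower and 0 higher, beside 9.08% and 14.6% of all genes. The 4 were Il7r, Cd79a, Ebf1 and Bcl11b, each with at least 28% of its UMIs in 1 cell. Over CD150, 3 of 4 were lower and 1 higher, beside 9.53% and 11.8% of all genes. The bone and cartilage targets of Runx2 had 4 genes in the counts and none with enough UMIs to be tested, with Alpl at 19 UMIs over all cells, Spp1 at 4, Sp7 at 3 and Col10a1 at 2. Runx2 at 210.0 CPM thus stood beside next to no transcripts of these targets.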

How the data were processed

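Single cells were sorted into 384-well plates and their polyadenylated RNA was counted with an adapted CEL-seq2 protocol, with cell indexes of 8 bases, UMIs of 6 random bases and ERCC spike-ins, per the labels' protocols. The deposited values are UMI counts per gene and cell made by the authors, not normalized. No source used here gives the aligner or the counting tool. The submitters' processing notes name the build GRCh38, which is human, while the identifiers are mouse Ensembl genes; symbols and coordinates came from GENCODE M21 (GRCm38) by identifier, and 20530 of 20764 genes had a symbol. All value columns were matched to cells by title.

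A cell needed 20% of the median gene UMIs in its pool, and 1 cell with 708 gene UMIs was left out. Doublets were not called, since cells were sorted singly. Classes were ranked within pool before this filter, so that 63 or 64 cells of each remained. UMIs were summed over a class and divided by all its gene UMIs, spike-ins left out, to give CPM. Sums have exact Poisson intervals, ratios exact conditional binomial intervals and shares Clopper-Pearson intervals, all at 95% and for counting error only. A side with 0 UMIs was set at a floor of 3 over the class. Genes with at least 20 UMIs over the classes compared were tested for size, and past 1.5-fold was the call. Shares of cells with a UMI were also computed after thinning to 12147 UMIs by a single random draw, which left out 19 cells. Likeness used log2(CPM + 10) and genes with at least 200 UMIs and no cell above 20% of them. Runx sites were searched in RefSeq promoter windows, which were matched for all 4 genes.

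The members and lists were chosen with earlier results of these data known. Named genes were the 4 members, of each list up to 4 genes with the most UMIs and those past 2-fold with at least 50 UMIs, and the 5 genes most like each member. The bone targets, the overlapping genes and Ebf1 were named in addition. Alternatives changed the cell filter, the denominator (spike-ins, TMM by edgeR 4.0.16, 3 abundant genes left out), the class width, the pool, the weight of cells, the highest cell, the CD127-high cells and a correction for UMI collisions. The scripts were tested on simulated data and used Python 3.11.15, numpy 2.4.6, scipy 1.17.1, pandas 2.3.3 and R 4.3.3.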

Additional observations from a re-analysis of the deposited data

How the results depend on the processing

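Of the alternative values, 201 of 208 log2 ratios and 117 of 120 shares moved by less than the counting interval of the reported value. The log2 ratio of Runx2, CD135 upper over lower, ranged from 0.39 to 0.77 and kept its sign in 13 of 13 alternatives, past 1.5-fold in 10. That of Runx1 over CD150 ranged from -0.73 to -0.25 and that of Runx2 over Sca-1 from 0.27 to 0.64, also with 1 sign, past 1.5-fold in 2 and 4 of 13. With spike-in UMIs as denominator the log2 ratio was -0.25 for Runx1 and -0.046 for Runx2 over CD150, 0.080 for Runx1 and -0.10 for Runx2 over cKit, and -0.59 for Runx1 and 0.27 for Runx2 over Sca-1; the classes differ in gene UMIs per spike-in UMI by that step. In pool 1 alone the log2 ratio of Runx3 over cKit was 0.48, and its share was 16.9% in CD135 upper and 14.5% in cKit lower cells, the last against 23.5% in pool 2; the cause was not tested. Counts of genes past 1.5-fold were smaller by over 1.5 times with at least 50 or 200 UMIs or with a 2-fold call in all 4 comparisons. Over CD135, where 1116 were higher and 1479 lower, they were 571 and 751 with 50 UMIs, 106 and 86 with 200 UMIs (chosen after seeing the data) and 442 and 599 past 2-fold. Over CD150 the 1214 higher and 984 lower became 567 and 441, 68 and 41, and 478 and 277 in the same order of settings. Over cKit the 1376 and 976 became 683 and 447, 82 and 66, and 455 and 353, and over Sca-1 the 1494 and 929 became 706 and 475, 81 and 67, and 509 and 281. No paired analysis was possible because the cells form 1 sample and carry no replicate number that pairs them. Depth limits single cells most: the median cell held 4 UMIs of Runx1 and of Runx2, 3 of Cbfb and 2 of Runx3.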
